A study of Oryctolagus cuniculus with 12 samples.

Results

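The uninjured basilar artery of the rabbit was read from the 3 arrays whose source name says control, out of the 12 samples of the series. The basilar artery runs along the brain stem and feeds the back of the brain. The other 9 samples are arteries taken 3, 5 or 7 days into an experimental subarachnoid hemorrhage, and they enter no value given here. The labels call the condition of these 3 samples normal, give no treatment for them, and describe total RNA of the whole artery, extracted with TRIzol, purified on a column kit, amplified with a low-input kit and labelled with the dye Cy3 on single-colour Agilent arrays. Age, sex and strain are not given in the sources used here, and nothing in the labels names separate animals, so the spread between arrays may be technical. Each control array lay on a slide of its own, so slide and sample cannot be told apart. The arrays, called control replicates 1, 2 and 3, are described below with no test, since they form 1 group.

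A cerebral artery has an inner lining of endothelium, a middle coat of smooth muscle that sets the bore of the vessel, and an outer adventitia of fibroblasts and collagen. It lies in the fluid-filled space between the sheets of the leptomeninges, whose cells line that space and cover the vessel, and it is supplied by nerve fibres from ganglia outside the brain. Whole-artery RNA therefore mixes these layers with any blood, meningeal or brain tissue that stays attached when the vessel is dissected.

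A level is the log2 of the processed signal of a probe minus the log2 of the 75th percentile of its array, so that 0 stands for a processed signal of 183 units on replicate 1, 189 on replicate 2 and 136 on replicate 3, and each step of 1 is a doubling. A gene takes the level of its brightest probe. It is called detected where at least 1 of its probes was marked well above background on all 3 arrays, absent where no probe was so marked on any array, and detected in part otherwise. Absent here means not well above background, which is a bound and not a level of 0. Of 10209 named genes, 5884 were detected (57.6%), 2195 were absent (21.5%) and 2130 were detected in part (20.9%). The detected share of every list below is to be read beside that 57.6%. That share is not matched for probe number, and a gene with more probes has more chances to be called. Of the 4606 genes with several probes, 3093 were detected. The median detected gene had a level of 0.01 and an SD of 0.249 over the 3 arrays.

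Of the 3 arrays, control replicate 2 was unlike the others. The share of spots marked well above background was 50.1% there, 61.9% on replicate 1 and 61.4% on replicate 3, and the lowest level so marked was -2.66 against -4.04 and -3.98. Of the 2130 genes detected in part, 1233 missed only replicate 2, while 35 missed only replicate 1 and 33 only replicate 3. Without replicate 2, 7142 of the 10209 named genes were detected. A list's count without replicate 2 is to be read beside that share and not beside 57.6%. Replicate 2 also had 991 spots more than 8-fold above the mean of the other arrays, against 75 and 92. Each array was cut into 476 blocks of 19 rows by 5 columns. A block was called bright where at least 10% of its spots were such high spots. Replicate 2 had 35 bright blocks, and each other array had 1. The 35 held 7.47% of the spots of replicate 2 and 728 of its 991 high spots, a share that follows in part from how blocks were picked. These bright blocks form a band across the array, and the brightest probe of 537 detected genes (9.13%) lay in them. With the spots of these blocks set aside, and their probes called on replicates 1 and 3 alone, 5955 genes were detected. Genes that lie there are named as such.

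**Figure D1:**
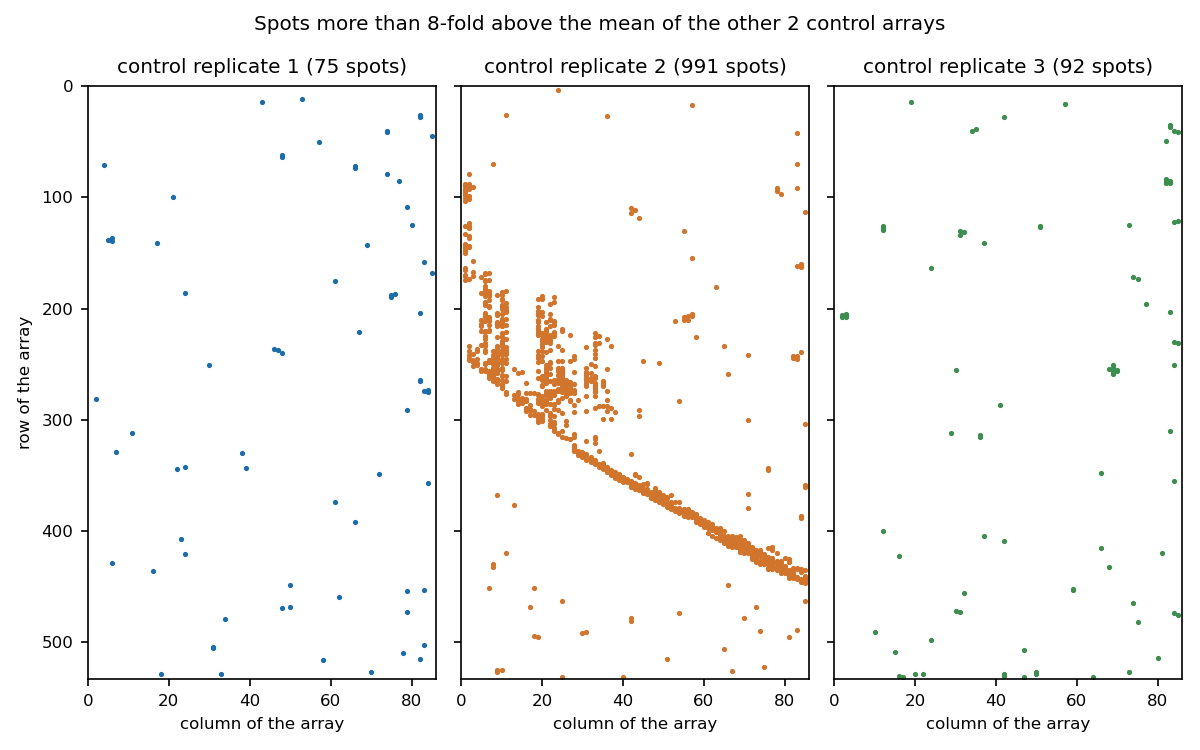
Position on the array (row against column, in spots) of every spot more than 8-fold above the mean of the other control arrays, 1 panel per array and 1 point per spot. Replicate 2 holds 991 such spots, most of them in a diagonal band, against 75 on replicate 1 and 92 on replicate 3.

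With probes that hold a repeat run (described next) set aside, the order of brightness was led by prostaglandin D synthase, beta actin and the machinery of translation, and secreted matrix and fluid proteins were among the genes that followed. PTGDS, the enzyme that makes prostaglandin D2 and an abundant protein of the cerebrospinal fluid made by leptomeningeal cells, lay at 10.30, 9.79 and 10.90 on replicates 1, 2 and 3. ACTB, the cytoplasmic beta actin, lay at 9.78, 9.87 and 10.22. The ubiquitin and ribosomal protein L40 fusion (LOC100343047) lay at 9.90, 9.34 and 10.51. All 3 were highest on replicate 3. MGP, the matrix Gla protein that keeps the arterial wall free of calcium deposits, lay at 9.10 ± 0.42 (SD, n = 3), lowest on replicate 1 at 8.66, and its 9 probes spanned 0.70. CST3, the secreted protease inhibitor cystatin C, lay at 8.32, 8.58 and 8.62. CD63, a tetraspanin of lysosomes and secretory vesicles, lay at 8.09, 8.09 and 8.40. CST3 and CD63 were likewise lowest or tied for lowest on replicate 1. APOD, a lipid carrier of perivascular fibroblasts, lay at 8.06, 8.09 and 8.23. CALR, the calcium-binding chaperone of the endoplasmic reticulum, lay at 7.87, 7.93 and 8.23, and COL8A1, a short-chain collagen of the vessel wall, at 8.02, 8.23 and 7.75. In COL8A1 replicate 3 was the lowest array, while in CALR it was the highest. Counting the probes with the repeat run, COL8A1 was the last of the 40 brightest named genes, with an SD of 0.24. GPC3 (7.97), just outside and itself read through the run, differed from it by less than that spread.

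Of the 40 brightest named genes, 18 were ribosomal proteins or translation factors. They include the ubiquitin and L40 fusion, RPLP1 (9.37, 9.55 and 9.90) and RPS12 (9.30, 9.45 and 9.67). RPL23 and RPL17, also among them, had brightest probes from the same mRNA entry. The rest of the 40 held KIF20A, a mitotic kinesin, at 8.38, 8.75 and 9.21, and UGT2C1, a liver glucuronosyltransferase, at 8.75, 8.22 and 7.77. Each of these was read by 1 probe, as were 16 of the 40. Whether KIF20A and UGT2C1 were read from their own transcripts was not tested. The list names only what the array names: 34 of the 40 brightest probes, and 66 of the 100 brightest, have no gene.

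**Figure D2:**
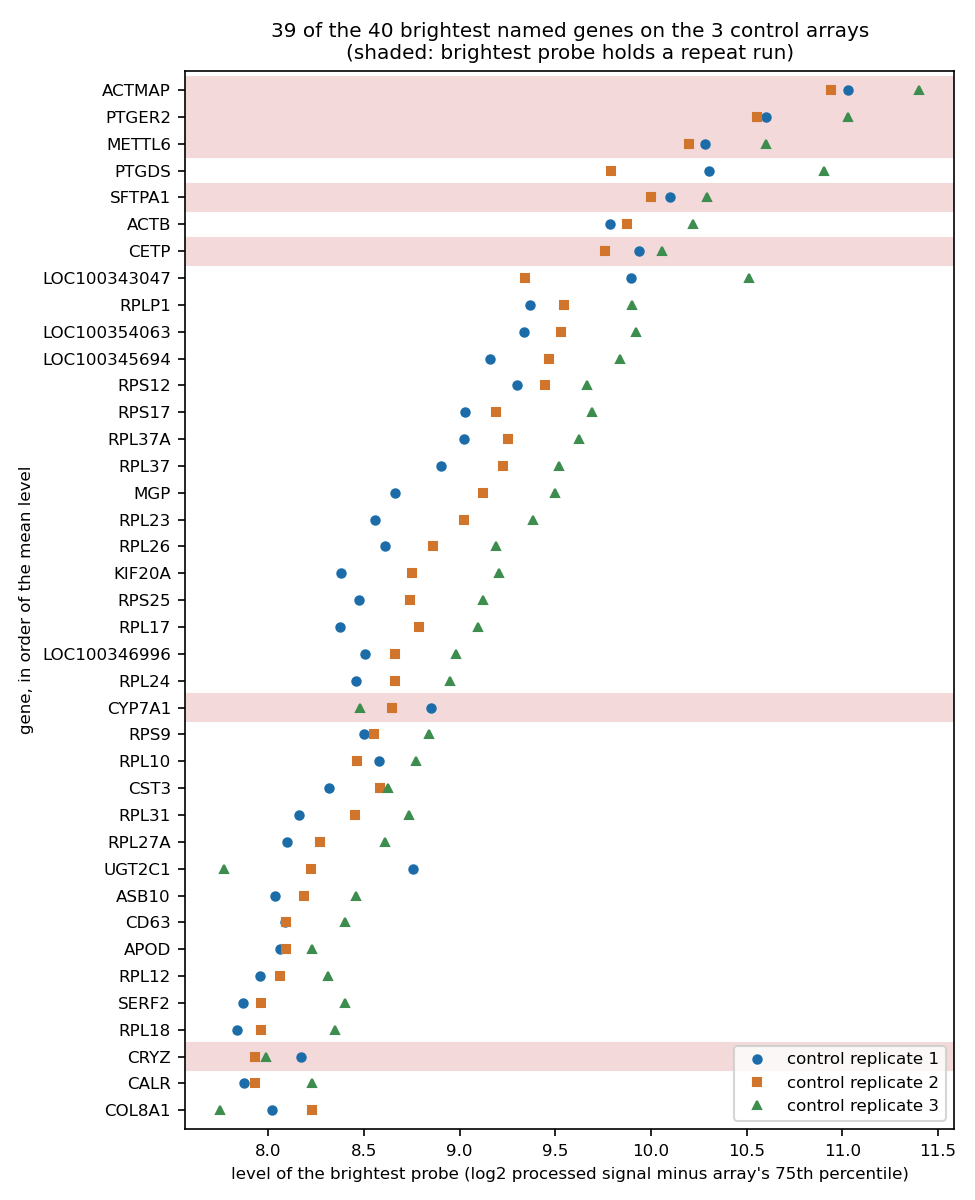
Levels of 39 of the 40 brightest named genes (log2 processed signal minus the 75th percentile of its array), 1 point per control array, in order of the mean. The 7 shaded genes, ACTMAP at 11.12 and PTGER2 at 10.73 among them, are read from a probe that holds the repeat run.

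The order is one of probe brightness, and probes of the same gene show how far that can be from an order of transcripts. Among 3093 detected genes with several probes, the brightest and the dimmest probe differed by a median of 0.85 (quartiles 0.38 and 1.68), and in 185 genes (5.98%) by more than 16-fold. The widest gaps were those of PTGER2 (16.56), SFTPA1 (15.79), CETP (15.46), CYP7A1 (14.48) and SPRR3 (13.68). The dimmest probe of each gene was not well above background on all 3 arrays. Its level is thus a bound, and the gap is not a measured ratio. These genes code for a prostaglandin E2 receptor, a lung surfactant protein, the plasma cholesteryl ester transfer protein, the rate-limiting enzyme of bile acid synthesis and an epithelial proline-rich protein. In all 5 the brightest probe holds a run of alternating C and T. Stretches of 30 bases around that run are shown as the array lists the probes, 5′ to 3′, with the run in capitals, followed by the dimmest PTGER2 probe, which has no run:

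PTGER2 brightest probe, bases 26 to 55, mean level 10.73: gaagaTCTCTCTCTCTCTCTCTCTCTaact

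SFTPA1 brightest probe, bases 21 to 50, mean level 10.13: tttgtctctccCTCTCTCTgtaactctacc

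CETP brightest probe, bases 9 to 38, mean level 9.92: ctctctggctgTCTCTCTCTgcctctcaag

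CYP7A1 brightest probe, bases 2 to 31, mean level 8.66: ggatggaagaaCTCTCTCTttttctgtctc

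SPRR3 brightest probe, bases 1 to 30, mean level 7.89: cggtgcatttTCTCTCTCTCTtacttgtac

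PTGER2 dimmest probe, bases 1 to 30, mean level -5.83: gtcattaagaacacaagatgcaacgcaaac

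The motif CTCTCTCT was searched in the listed strand of all 43623 probes, and 155 of them (0.355%) hold it. Their median level was 7.48, against -2.66 over all probes. They make up 31 of the 40 brightest probes and 65 of the 100 brightest, and 92.9% of them were well above background on all 3 arrays, against 47.5% of all probes. The same run on the other strand, AGAGAGAG, is in 171 probes (0.392%). Their median level was -4.54, 36.3% were well above background on all 3 arrays, and 0 of them were among the 100 brightest. Brightness thus went with the run on the listed strand and not with its complement. A match of letters is a description of the probe, and why such probes are bright was not tested.

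For 28 named genes (0.274%) the brightest probe holds the run, and 8 of them are among the 40 brightest, among them ACTMAP, PTGER2, METTL6, SFTPA1, CETP, CYP7A1 and CRYZ. Of the 28, 18 have another probe, and their median level was 7.80 with the run and -2.99 without it. PTGER2, SFTPA1, CETP, CYP7A1 and LOC100342861 were absent by their other probes. GPC3, a surface proteoglycan, went from 7.97 to 0.31 and was still detected. KL, the klotho protein of kidney and choroid plexus, went from 1.95 to -4.84, and its brightest probe also lay in a bright block of replicate 2. Below, these genes are named as read through the run.

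Close neighbours of a probe could differ as well. SFTPB, another surfactant protein, has 4 probes that hold no run, all of which share at least 58 bases with the brightest, and their means ran from 2.29 to 7.01. Differences between strands were often wider. In 10 pairs a probe is the exact complement of another, and the brighter member was 2.11 to 8.37 above the dimmer (median 4.88). In all 10 pairs the brighter probe came from an mRNA entry and the dimmer from a clone read taken from the 3′ end. RPS9, a protein of the small ribosomal subunit, shows it in 30 shared bases, read once in each direction:

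RPS9 mRNA-sense probe, bases 1 to 30, mean level 8.63: acgagggcaagatgaagctggactacatcc

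RPS9 opposite-strand probe, bases 31 to 60, mean level 0.54: ggatgtagtccagcttcatcttgccctcgt

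The sense probe read 8.50, 8.55 and 8.84 and the opposite probe 0.50, 0.64 and 0.48 on replicates 1, 2 and 3. The sense probe lay in a bright block of replicate 2, and it was the brighter on the other arrays as well. Over the array, 5107 probes were drawn from 3′ clone reads. Their median level was -4.82 and 17.9% were well above background on all 3 arrays, against 0.04 and 75.1% for 5598 probes from 5′ clone reads. Of the 3′ probes 5056 have no gene here, and 1 of the 2195 absent genes was read by 3′ probes alone.

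Smooth muscle genes were well represented. The contractile list holds 52 symbols, and 39 of them were measured. All 39 were detected on all 3 arrays, against 57.6% of all named genes, with a median level of 3.25 against 0.01 for all detected genes. A high level can come from more cells or from more RNA per cell, which cannot be told apart in whole-artery RNA. ACTA2, the alpha actin of smooth muscle, lay at 7.49, 7.88 and 7.48. MYL9, the regulatory myosin light chain, lay at 7.63, 7.44 and 7.30, and MYLK, the kinase that phosphorylates it to start contraction, at 7.67, 7.47 and 7.98. MYH11, the smooth muscle myosin heavy chain, lay at 7.33, 6.90 and 6.30, and was lowest on replicate 3. CALD1 (7.36 ± 0.21, SD, n = 3), an actin-binding regulator, TAGLN (6.76 ± 0.26), an actin cross-linker, and TPM1 (6.64 ± 0.37), a tropomyosin, stood in the top 1% of named genes. ITGB1, the common beta subunit of matrix receptors, lay at 7.61, 7.73 and 7.96. ACTG2, the gamma actin usually linked with gut and bladder muscle, lay at 6.29, 6.76 and 6.31, with its 5 probes within 0.39 of each other. DES, the muscle intermediate filament, lay at 5.46 ± 0.46, and PLN, which restrains the calcium pump of the internal store, at 5.36 ± 0.07. The dimmest members were SYNM (-1.10), an intermediate filament protein, and PDLIM3 (-1.52). Probe choice mattered here too, since another MYH11 probe read 2.34 and the lowest MYLK probe lay 6.17 below its brightest. CNN1, a calponin often used as a smooth muscle marker, has no named probe and was not analysed here.

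The skeletal and cardiac actins ACTA1 (7.53, 7.94 and 7.61) and ACTC1 (7.36, 7.93 and 7.85) were also bright, and like ACTA2 both were highest on replicate 2. The brightest ACTG2 and ACTA1 probes overlap by 37 bases with 9 mismatches (75.7% identical), while the other pairs of brightest actin probes, ACTB included, were at most 52.2% identical in any overlap. How far one actin's probe reads another's RNA was not tested, so the levels of the single actins are uncertain. Other striated muscle genes were mixed. MYL1, MYL2, MYL3, MYOG, NEB, NKX2-5 and TNNT3 were absent, and 11 of 28 members of that list were detected (39.3%). MYH3, an embryonic myosin heavy chain, read 3.23 ± 0.43 and CKM, the muscle creatine kinase, 2.05 ± 0.34. TTN read 1.65 on replicate 2 and -2.56 and -2.65 on the others, with its probe in a bright block.

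Of the transcription factors tied to smooth muscle, 13 of 25 were detected (52.0%, against 57.6% of all named genes). Without replicate 2, 20 were, against 7142 of all 10209 named genes. CSRP2, a LIM protein that works with serum response factor, lay at 7.22, 6.42 and 7.39. MYOCD, the coactivator that switches on contractile genes, lay at 4.39, 3.03 and 3.73. PRRX1 (2.72 ± 0.20), a mesenchymal homeobox factor, and the Notch pathway members HEY2 (2.52 ± 0.45) and JAG1 (1.96 ± 0.26) followed. TCF21, a factor of adventitial fibroblasts, TBX20 and ELK1 were absent. HOX and other patterning genes were mostly dim, with 10 of 41 detected (24.4%) and 23 absent. The detected HOX genes were HOXA2 (-0.59), HOXC12 (-1.24) and HOXC13 (-2.28), and HOXA10, HOXA11, HOXB1, HOXB13 and HOXB6 were among those absent. HOXA2 is one of the HOX genes of the hindbrain and its neural crest.

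Of endothelial genes 25 of 34 were detected (73.5%, against 57.6% of all named genes), with a median of 0.75 among those detected. VWF, the clotting factor stored in endothelium, lay at 5.86, 5.54 and 5.64, although a second VWF probe read -1.72. CAV1, the caveola protein shared with smooth muscle, lay at 5.40, 4.87 and 5.94, and TFPI, an inhibitor of tissue factor, at 5.14, 5.15 and 4.77. NOS3, the nitric oxide synthase of endothelium, lay at 2.81, 1.72 and 2.20. CLDN5, the tight junction claudin of endothelium, lay at 3.04 ± 0.23 and PECAM1, the platelet and endothelial adhesion molecule, at 0.75 ± 0.24. VCAM1, the adhesion molecule for lymphocytes and monocytes, lay at 3.83, 4.17 and 4.42. The other inducible adhesion molecules, SELE, SELP and ICAM1, were absent, and so were FLI1, MMRN1 and ROBO4. KDR, a receptor for the growth factor VEGF, passed on replicate 3 alone, and FLT1, its homolog, read -1.84 ± 0.25.

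Among genes linked with the blood-brain barrier, 16 of 21 were detected (76.2%). ITM2A lay at 4.20 ± 0.10, ABCB1, a drug efflux pump, at 2.34, 2.88 and 3.36, and SLC2A1, the glucose transporter, at 2.87, 2.06 and 3.38 with its probe in a bright block. MFSD2A, the lipid transporter of brain capillary endothelium, and CA4 passed on replicate 3 alone, SLCO1C1 on replicate 1 alone, and ABCC1 was absent. Of the pericyte list 9 of 14 were detected (64.3%), led by ECM2 (3.68 ± 0.24) and RGS5 (3.57 ± 0.28), a brake on G protein signalling that smooth muscle also makes. CSPG4 read 0.82 ± 0.16 and KCNJ8 -1.45 ± 0.27. PDGFRB, the receptor that recruits mural cells, missed replicate 2, and ATP13A5 was absent.

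All 25 measured members of the fibroblast and adventitia list were detected, with a median of 0.88. COL3A1, a fibrillar collagen, lay at 6.79, 7.74 and 6.98, and COL1A2, a chain of collagen I, at 7.14, 7.52 and 6.79. DCN, a small proteoglycan bound to collagen fibrils, lay at 6.70, 6.73 and 7.43. Both collagens were highest on replicate 2 and decorin on replicate 3. IGFBP6, a binding protein of insulin-like growth factors, read 6.94 ± 0.07 and CLU, the extracellular chaperone clusterin, 6.08 ± 0.50. COL1A1, the other chain of collagen I, read 2.76 ± 0.55 by its only probe.

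**Figure D3:**
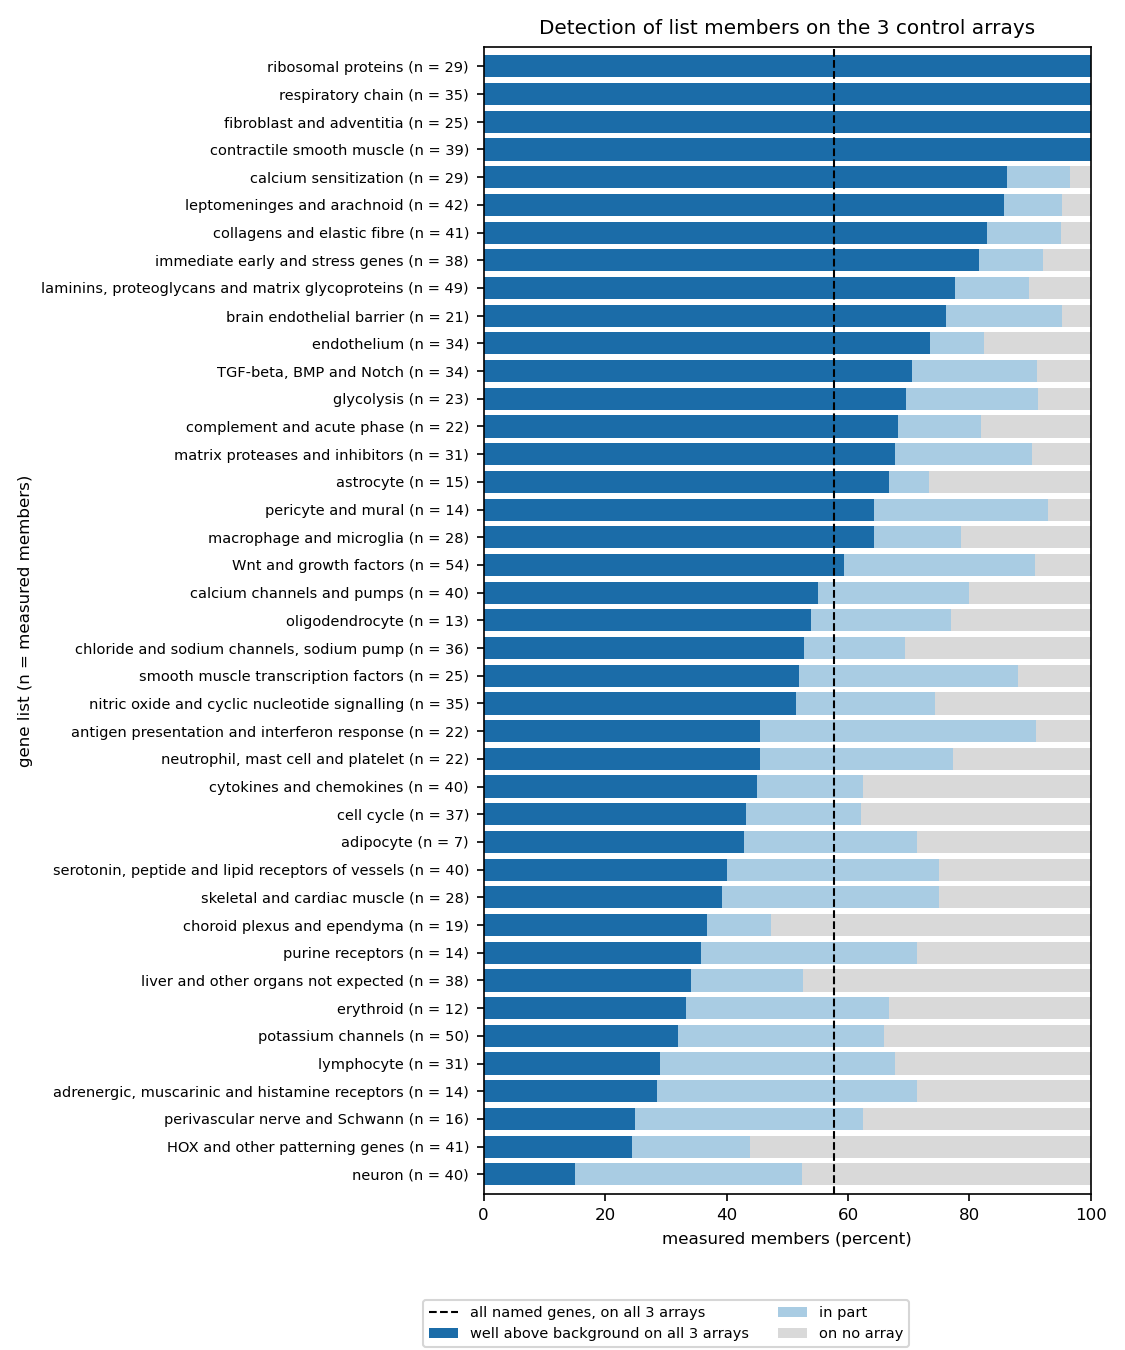
Share of the measured members of each of 41 gene lists that were well above background on all 3 control arrays (dark), in part (light) and on no array (grey), with n members measured. The dashed line is the 57.6% of all named genes. Every measured member of the contractile, fibroblast, ribosomal and respiratory chain lists is dark, and the neuron list has the smallest dark share, 6 of 40.

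The matrix genes of the wall were largely present. Of collagens and elastic fibre genes 34 of 41 were detected (82.9%), and COL11A2 and LOXL4 were absent. COL5A1 (5.44, 5.53 and 5.20), a regulator of fibril width, COL15A1 (4.54, 5.15 and 3.98) and COL4A2 (3.52, 3.45 and 2.51), both of basement membranes, had their lowest level on replicate 3. COL2A1, the collagen of cartilage, read 3.01 ± 0.18 by its brightest probe and 7.17 less by its dimmest. MFAP4 (2.93 ± 0.50), FBN1 (2.36 ± 0.46) and FBLN5 (0.74 ± 0.35), all of elastic fibres, were detected, and elastin itself has no named probe here. Of laminins, proteoglycans and glycoproteins 38 of 49 were detected (77.6%). OGN, a small proteoglycan, lay at 7.24, 7.36 and 7.81, SPARCL1 at 5.83, 5.96 and 5.73, and FN1, fibronectin, at 5.01, 5.61 and 4.13. The cartilage and neural matrix genes ACAN, HAPLN1, MATN1 and TNR were absent. For matrix proteases and inhibitors 21 of 31 were detected (67.7%), with CST3, given above, the brightest read without the run. Of the inhibitors of metalloproteases, TIMP3 read 6.07 ± 0.33 and TIMP1 3.92 ± 0.21. Of the proteases, CTSK read 2.97 ± 0.13 and MMP2, the gelatinase of resting tissue, 2.64 ± 0.40. MMP9, the gelatinase of leukocytes, lay at 0.09, 0.98 and 1.19, lowest on replicate 1. MMP12 and MMP15 were absent.

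Leptomeningeal genes were well represented, with 36 of 42 detected (85.7%, against 57.6% of all named genes). Their median level was 1.42 among those detected and 1.25 over all measured members. PTGDS, MGP, OGN and DCN, given above, head this list and are shared with the vessel wall. More restricted members were the organic anion transporters SLC22A8 (3.18, 2.08 and 4.27) and SLC22A6 (2.06, 0.66 and 2.56), which clear metabolites from the cerebrospinal fluid. SLC47A1, an exporter of organic cations, lay at 3.24, 2.65 and 4.12 with its probe in a bright block. All of these were highest on replicate 3 and lowest on replicate 2. CRABP1 (1.97 ± 0.56) and ALDH1A1 (2.14 ± 0.41), of retinoic acid handling, BMP5 (2.92 ± 0.41) and BMP7 (2.09 ± 0.47), morphogens of the meninges, and CLDN11 (1.71 ± 0.27), the claudin of the arachnoid barrier, were detected. CDH1, the epithelial cadherin of arachnoid barrier cells, and SLC22A2 were absent. KRT18, an epithelial keratin, read 3.03 on replicate 2 and -3.44 and -3.51 on the others, with its only probe in a bright block. Over the 36 detected members the median deviation from the mean of the arrays was -0.02 on replicate 1, -0.31 on replicate 2 and 0.33 on replicate 3, against 0.01, -0.08 and 0.04 over all detected genes. The share of meningeal tissue in each sample was not tested.

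The choroid plexus, which makes the cerebrospinal fluid, shares some genes with the meninges. TTR, the thyroid hormone carrier, lay at 1.37, -0.55 and 2.66, an SD of 1.62, with its 5 probes within 0.19 of each other. KCNJ13, a potassium channel of the plexus, lay at 0.34, -1.41 and 0.49, and ENPP2, autotaxin, at 2.09 ± 0.22. Other genes of the plexus and ependyma were absent, among them CLIC6, FOXJ1, HTR2C, OTX2, CAPSL, CCDC39, DNAI1 and RSPH1. In all 7 of 19 members were detected (36.8%), KL only through its probe with the repeat run.

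**Figure D4:**
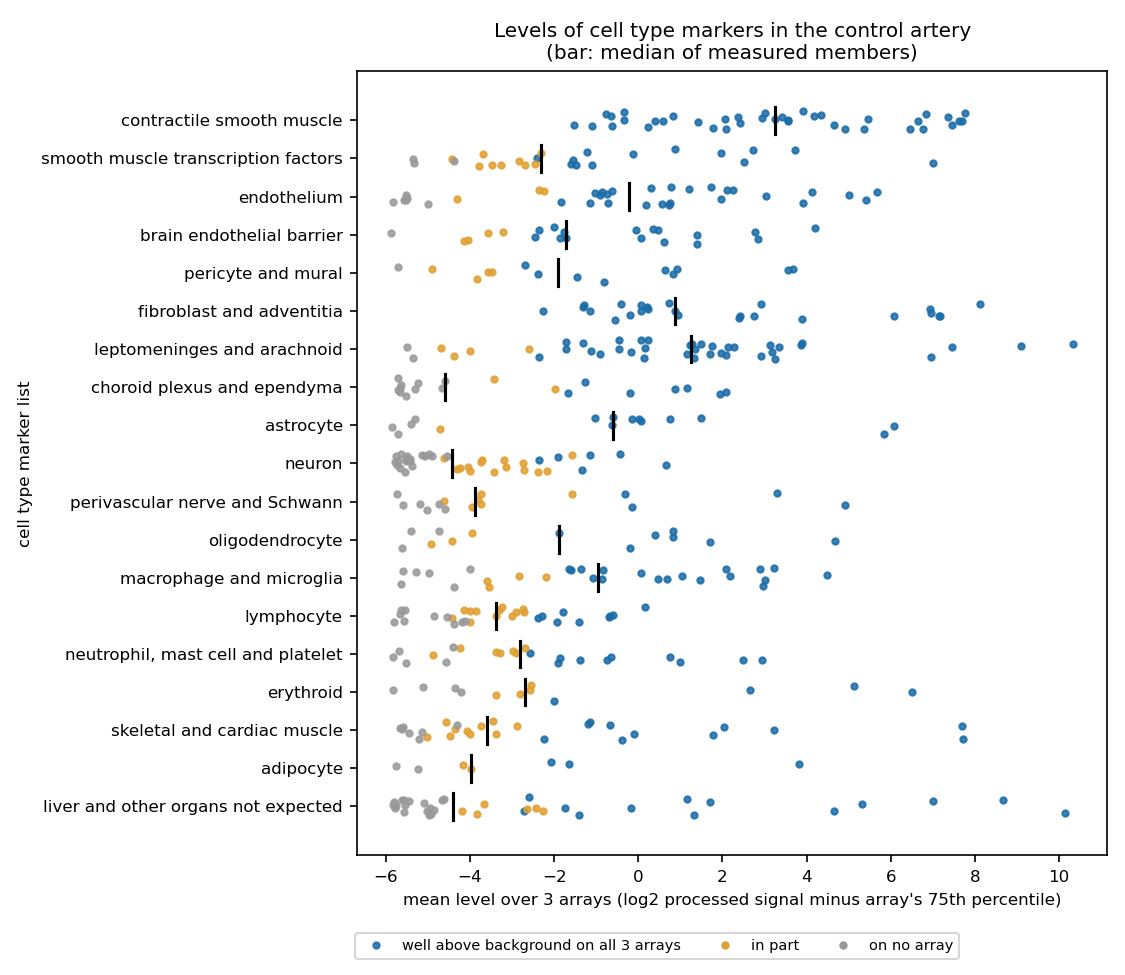
Mean level over the 3 control arrays (log2 processed signal minus the 75th percentile of its array) of every measured marker in 19 cell type lists, 1 point per gene, coloured by detection, with a bar at the list's median. The contractile list has its median at 3.25 and no grey point, and the neuron list has its median at -4.43. Each median is over all measured members.

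Neuronal genes had the smallest detected share of the 41 lists. Of 40 measured 6 were detected (15%) and 19 were absent (47.5%, against 21.5% of all named genes), among them CAMK2A, DCX, GAD1, GAD2, GAP43 and GRIA1. Without replicate 2, 13 were detected, against 7142 of all 10209 named genes. The brightest was ENO2, the neuron-linked enolase, at 0.77, 0.81 and 0.36, followed by MAP2 at -0.14, -0.44 and -0.71. UCHL1, a ubiquitin hydrolase of neurons, read 1.49 on replicate 2 and -2.42 and -2.52 on the others. STMN2, SYN2 and NRGN passed on replicate 3 alone.

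The astrocyte list split. GFAP, AQP4, SLC1A2 and KCNJ10, the defining filament, water channel, glutamate transporter and potassium channel, were absent on all 3 arrays. The 10 of 15 that were detected (66.7%) are led by CLU and SPARCL1 (5.84 ± 0.12), which vessel wall cells also make, and GLUL, glutamine synthetase, read 1.48 ± 0.46. ALDH1L1, a folate enzyme used as an astrocyte marker, read -0.62 ± 0.20. Of oligodendrocyte genes 7 of 13 were detected (53.8%, near the 57.6% of all named genes), led by TF (4.68 ± 0.25), transferrin, and by CLDN11. MOBP, ERMN and SOX10 were absent. Of genes of perivascular nerves and Schwann cells 4 of 16 were detected (25%). The brightest were CRYAB (5.02, 4.22 and 5.53), a small heat shock protein that muscle also makes, and PMP22 (3.01, 3.60 and 3.28), a protein of peripheral myelin. S100B lay at -0.29, -0.13 and -0.02. The dimmest detected member, SLC6A2, the noradrenaline transporter of sympathetic fibres, lay at -0.44, -0.34 and -0.18. TH, the rate-limiting enzyme of noradrenaline synthesis, passed on replicate 1 alone, NPY missed replicate 2, and NOS1, PRPH and SLC5A7 were absent.

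Of the immune cell lists, that of macrophages had the largest detected share, with 18 of 28 (64.3%), which is near the 57.6% of all named genes. APOE, the lipid carrier of macrophages and glia, lay at 4.53, 4.62 and 4.29. LGALS3, galectin-3, lay at 2.73, 2.90 and 4.03. CD14, the endotoxin coreceptor, lay at 2.57, 1.86 and 2.11. C1QC (1.47 ± 0.36), a chain of the first complement component, MRC1 (0.47 ± 0.21), the mannose receptor of tissue macrophages, and CX3CR1 (-1.64 ± 0.19), the fractalkine receptor, were dimmer. The monocyte chemokine receptors CCR1 and CCR2 were absent. Of lymphocyte genes 9 of 31 were detected (29.0%), and 16 without replicate 2. CORO1A, an actin regulator of leukocytes, was brightest at 0.16 ± 0.31, CD3D, of the T cell receptor complex, read -0.69 ± 0.33, and BLK, CD2, CD22, CD28, CD3E, CD4, CD40LG and CD79B were absent. Of neutrophil, mast cell and platelet genes 10 of 22 were detected (45.5%). CXCR1, a receptor of interleukin 8, read 0.98 ± 0.28 and S100A9 -0.74 ± 0.16. Globin RNA, carried by red cells, was detected. HBB2, a beta globin, lay at 6.81, 6.22 and 6.49, and HBA, alpha globin, at 5.62, 4.72 and 5.02. Both globins were highest on replicate 1. Of the 12 erythroid genes 4 were detected (33.3%), 7 without replicate 2, and EPB42, HEMGN and RHAG were absent.

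Among cytokines and chemokines 18 of 40 were detected (45.0%) and 15 were absent (37.5%), IL6, IL1A, IL10, CSF2 and CSF3 among them. MIF, a constitutive cytokine, read 3.00, 2.85 and 3.23. CCL2, the monocyte chemokine, lay at -0.31, 0.65 and 1.40, and IL1B at -0.84, 1.17 and 0.90 with its probe in a bright block. TNF lay at -1.21, -0.59 and -0.33. CCL2, IL1B and TNF all had their lowest level on replicate 1. Complement and acute phase genes were more often present than those, with 15 of 22 detected (68.2%, against 57.6% of all named genes). Their median level was 1.72 among those detected and 0.79 over all measured members. C4A lay at 5.53, 5.31 and 4.72 with its probe in a bright block, and C1R, the protease that starts the classical pathway, at 3.72 ± 0.26. CP, ceruloplasmin, read 3.63 ± 0.25. The late components C6, C8B and C8G were absent. SAA3, an acute phase apolipoprotein, lay at 2.69, 2.05 and 4.30 and HP, haptoglobin, at -0.14, -0.04 and 1.87. Of antigen presentation and interferon genes 10 of 22 were detected (45.5%), led by PSMB9 (1.95 ± 0.67) and IFIH1 (1.56 ± 0.19).

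Genes of other organs were listed as a check on what a level means. Of 38 such genes 13 were detected (34.2%) and 18 were absent (47.4%), among them ALB, APOA1, APOA2, FGA and FGG of the liver. The brightest, SFTPA1 and CYP7A1, were read through the repeat run and were absent by their other probes. CRYAA, a lens crystallin, lay at 4.48, 4.74 and 4.75 by one probe and was absent by the other, at -5.64. LHB, the beta chain of luteinizing hormone, lay at 4.97, 5.24 and 5.76 by its only probe, and POMC, the precursor of pituitary hormones, at 1.17, 1.56 and 2.41. Whether LHB and CRYAA were read from their own transcripts was not tested.

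Most receptors for vasoactive agents were not well above background on all 3 arrays, while most named genes (57.6%) were. Of adrenergic, muscarinic and histamine receptors 4 of 14 were detected (28.6%), 9 without replicate 2, and ADRA1B was absent. ADRB3 (-0.58 ± 0.02) was the brightest, and HRH1, the histamine receptor that contracts many arteries, read -1.59 ± 0.20. Among serotonin, peptide and lipid receptors and their ligands 16 of 40 were detected (40%), with PTGER2 read through the repeat run. EDNRA, the endothelin receptor of smooth muscle, lay at 1.34, 1.32 and 1.24. EDN1, endothelin itself, lay at 0.32, 0.30 and 0.25. EDNRB, the second endothelin receptor, lay at -0.53, -2.07 and -1.47. EDNRA and EDN1 hardly varied between the arrays, while EDNRB was highest on replicate 1 and lowest on replicate 2. ACE, which makes angiotensin II, lay at 3.89, 3.28 and 4.56, and PTGS2, the inducible cyclooxygenase, at 3.04, 2.47 and 3.62. PTGER4, a relaxing receptor for prostaglandin E2, read 1.49 ± 0.32. The serotonin receptors HTR2A (-1.69, -1.37 and -3.16) and HTR1B (-2.88, -1.36 and -3.90), which constrict cerebral arteries, were dim, with their probes in bright blocks, and HTR1A, HTR1D, HTR2C and HTR7 were absent. NPY1R, the constrictor receptor for neuropeptide Y, read -1.42 ± 0.52, and BDKRB2 and PTGDR, a receptor for prostaglandin D2, were absent. For purines 5 of 14 were detected (35.7%), led by ADORA2A, the relaxing adenosine receptor, at 3.49, 3.74 and 3.76 with its probe in a bright block.

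Downstream of the receptors, most measured calcium sensitization genes were detected, 25 of 29 (86.2%). These genes keep myosin light chains phosphorylated at a given calcium level. RHOA lay at 2.42, 2.42 and 2.50, ROCK1 at 2.76, 2.55 and 2.65, and ROCK2 at 1.41, 1.27 and 1.34. PPP1R12A, the myosin phosphatase subunit that these kinases inhibit, lay at 3.50, 3.89 and 3.66, and ILK at 5.05 ± 0.13. The 3 kinase and GTPase genes varied by little between arrays, and PRKCE alone of the list was absent. In the opposing nitric oxide pathway 18 of 35 were detected (51.4%, near the 57.6% of all named genes). PDE5A, which breaks down cyclic GMP, lay at 2.01, 2.15 and 1.84, PRKG1, the kinase that cyclic GMP activates, at 0.90, 1.05 and 1.07, and GUCY1B1, a subunit of the nitric oxide receptor, at 0.16 ± 0.20. GUCY1A1, the partner subunit, read 3.24 on replicate 2 against 0.92 and 0.53. NOS1 was absent, and NOS2 had no single probe above background on all 3 arrays.

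Of calcium channels and pumps 22 of 40 were detected (55%, near the 57.6% of all named genes). They were led by CALR and PLN, given above, both of the internal store. ATP2A2, the pump that fills the store, lay at 5.49, 4.93 and 5.39, and CASQ2, a calcium-binding protein inside it, at 4.51, 4.67 and 4.75. SLC8A1, the sodium-calcium exchanger, read 2.78 ± 0.32, RYR3 2.21 ± 0.14, RYR2 1.78 ± 0.16, and CACNA1C, the pore of the L-type channel, 1.57 ± 0.45. CACNA1G, a T-type pore, CACNA1S and STIM2 were absent. TRPC1 read 3.11 on replicate 2 and -2.66 and -2.09 on the others, with its probe in a bright block. Of 50 potassium channel genes 16 were detected (32.0%) and 17 were absent. KCNH2 (3.68, 4.69 and 3.77) and KCNK2, a mechanosensitive background channel (4.12, 3.56 and 4.28), were brightest. KCNMB1, the smooth muscle subunit of the large-conductance calcium-activated channel, read 2.09 ± 0.13, and its pore KCNMA1 -0.96 ± 0.26. The subunits of the ATP-sensitive channel of vessels, ABCC9 (0.63 ± 0.31) and KCNJ8, were both detected. Of chloride and sodium channel genes 19 of 36 were detected (52.8%, again near that share), led by CLIC1 (5.39 ± 0.35), and CFTR was absent.

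Growth signals of the wall included secreted antagonists and binding proteins. Of Wnt and growth factor genes 32 of 54 were detected (59.3%, near the 57.6% of all named genes). FZD2, a Wnt receptor, lay at 4.96, 4.66 and 4.76 with its probe in a bright block, DKK2, a secreted Wnt antagonist, at 3.14, 3.77 and 3.14, and PTN, a heparin-binding growth factor, at 3.77, 3.32 and 3.61. IGFBP2 read 3.88 ± 0.52 and IGFBP5 3.24 ± 0.13, while WNT5A, WNT7A and MET were absent. For TGF-beta, BMP and Notch 24 of 34 were detected (70.6%), led by BMPR2 (5.46, 5.07 and 5.34), the receptor mutated in familial pulmonary hypertension, and INHBA (3.88 ± 0.30). Of the cell cycle list 16 of 37 genes were detected (43.2%). KIF20A, given above and read by 1 probe, was its brightest member. AURKA, AURKB, BUB1, BUB1B and CENPE were absent, and MKI67 and CDK1 missed replicate 2. The cycle inhibitor CDKN1B read 2.46 ± 0.38 and CCND1 2.38 ± 0.25.

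Genes of energy and protein synthesis were bright with few exceptions. All 29 measured genes of the list of ribosomal proteins and translation factors were detected, with a median of 8.11. RPL7 alone among them lay far below the rest, at -0.63 ± 0.32, the next being RPS16 at 5.71. All 35 measured respiratory chain genes were detected, of 80 symbols listed, with a median of 4.99, led by ATP5MG (6.82, 6.81 and 7.24). GAPDH lay at 7.11, 6.84 and 6.98, and 16 of 23 glycolysis genes were detected (69.6%), SLC2A4, the insulin-dependent glucose transporter, at 3.81 ± 0.11 among them. HK3 and PKLR, isoforms of leukocytes and of liver and red cells, were absent. Of immediate early and stress genes 31 of 38 were detected (81.6%), with FTL, ferritin light chain, at 7.80, 7.14 and 8.03.

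The 3 arrays agreed closely for most genes. Over the 20724 probes well above background on all 3, the levels of replicates 1 and 3 correlated at r = 0.981, replicates 1 and 2 at 0.969 and replicates 2 and 3 at 0.965. These are correlations across probes within pairs of arrays, and probes are not replicates. The median range of a detected gene was 0.476, which is 1.39-fold. Among the brightest 588 detected genes, the smallest range was that of EEF1A1, an elongation factor, at 7.83, 7.84 and 7.82, with its probe in a bright block of replicate 2. MPZL2 (3.24, 3.22 and 3.26), DSTN (5.81, 5.85 and 5.83), an actin-severing protein, and CCT7 (3.10, 3.06 and 3.06), a chaperonin subunit, followed.

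The 15 detected genes with the largest range were all highest on replicate 2, and the brightest probe of each lay in its bright blocks. TSPAN14 read 3.16 there and -3.70 and -3.83 on replicates 1 and 3, ATAD2B 3.28 against -3.53 and -3.67, and AHSG, the plasma protein fetuin-A, 3.07 against -2.65 and -3.72. Of 54 detected genes with a range over 3, 46 were highest on replicate 2 and 39 lay in those blocks. Over the 537 detected genes of the blocks, replicate 2 stood a median of 0.21 above the mean of the others, and over the genes outside them -0.13. The blocks were picked for spots high on replicate 2, so these overlaps and medians follow in part from that choice. The largest range was 6.99 over the 3 arrays and 4.13 without replicate 2.

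Between replicates 1 and 3, 246 detected genes (4.18%) differed by more than 2-fold, 108 higher on replicate 1 and 138 higher on replicate 3. On replicate 1 the granule peptides of neutrophils were high. The defensin NP-4 (LOC100009135) read 0.69, -2.05 and -3.44 on replicates 1, 2 and 3, corticostatin-6 (LOC100009136) 0.40, -1.48 and -2.17, and S100A8, a calcium-binding protein of neutrophils, 0.66, -2.38 and -2.43. Its partner S100A9 did not follow, at -0.84, -0.82 and -0.55, and other neutrophil genes such as CXCR2 (-0.64, -0.63 and -0.70) and MMP8 (-2.77, -2.53 and -2.44) were level. On replicate 3 some immediate early genes were high. EGR1 read 0.84, 1.84 and 3.23, FOS 1.90, 1.94 and 3.38, and GADD45G 0.98, 1.45 and 2.97. Some others of the same list differed less. MYC at 1.51, 1.37 and 1.73 and DUSP1 at 0.52, -0.41 and 0.76 were also highest on replicate 3 by level. By processed signal they were not, with MYC at 520.7, 487.9 and 452.1 and DUSP1 at 261.5, 141.5 and 230.7. CCN2, with its probe in a bright block, lay at 2.68, 2.04 and 2.56. The list's median deviation on replicate 3 was 0.31, close to the 0.33 of the respiratory chain. The acute phase genes SAA3 and HP, given above, were also highest there, and UQCR10, a small respiratory subunit, read 2.89, 4.52 and 5.79. As a list, cytokines and chemokines had a median deviation of -0.45 on replicate 1, 0.09 on replicate 2 and 0.39 on replicate 3. Collagens and elastic fibre genes stood at 0.10, 0.17 and -0.36, and the contractile list at 0.01, 0.08 and -0.17. The list of ribosomal proteins and translation factors stood at -0.21, -0.03 and 0.28. CXCL10, an interferon-induced chemokine, was lowest on replicate 1, at -3.70 against -0.68 and -1.49, and NR1D1, a repressor of the circadian clock, likewise at -2.26 against 0.47 and -0.13. With 1 sample per array these differences belong to single samples, and their cause was not tested.

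**Figure D5:**
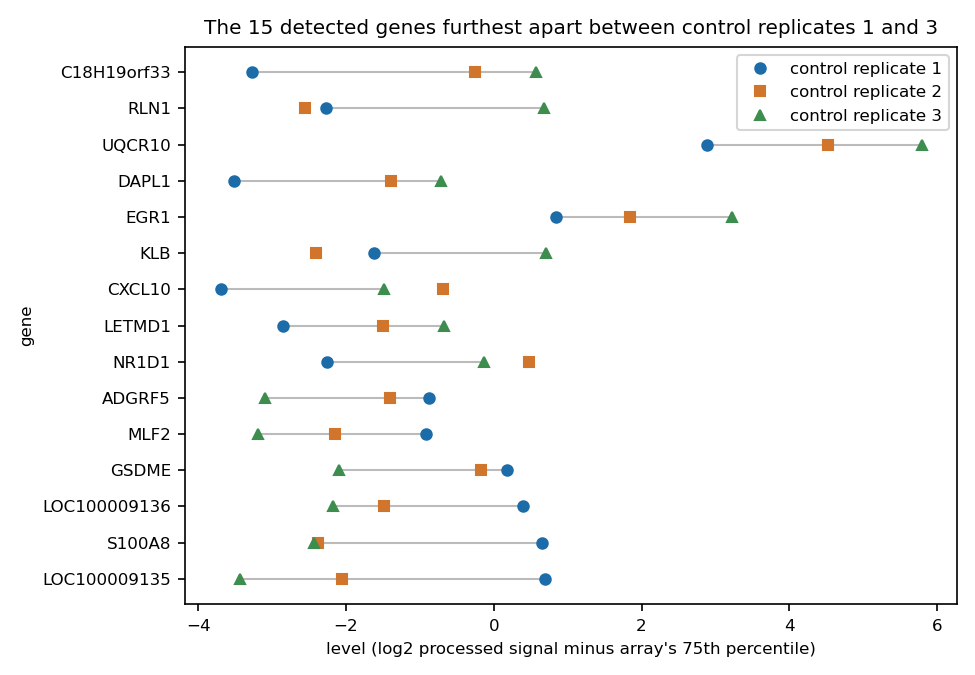
Levels of the 15 detected genes furthest apart between control replicates 1 and 3 (log2 processed signal minus the 75th percentile of its array), 1 point per array, with a line joining replicates 1 and 3. LOC100009135, S100A8 and LOC100009136 are highest on replicate 1, and UQCR10, EGR1 and RLN1 are highest on replicate 3.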

How the data were processed

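The authors deposited scanner files, and the submitters' processing notes name Agilent Feature Extraction (version 9.5.1.1). In them the processed signal is, per the file headers, a linear intensity: background was subtracted, spatial trend was removed on each array, a surrogate replaces values near background, and nothing scales one array to another. The mean and local background signals are unprocessed intensity per the file headers. A value table from the authors also holds intensity (median 27.0 in each of the 3 columns, r of at least 0.994 with the processed signals on the log2 scale), and was an alternative only. Flags are deposited as 0 or 1 per spot. No spot was saturated. No aligner applies, and further processing is not given in the sources used here.

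Control spots and outlier-flagged spots (16, 169 and 5 on replicates 1, 2 and 3) were left out, and spots of a probe were averaged on the log2 scale (median SD between spots 0.086, 0.066 and 0.090). Signal over background, and the number of arrays, limit the precision. Of 43623 probes, 22367 were given 1 gene, 257 several and 20999 none, through the accessions, symbols and descriptions on the array and a RefSeq gene table; 247 were named by description, and 577 genes keep a LOC symbol. The array names no genome build, so no coordinates are given. Several probes of a gene can overlap.

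The text names the 40 brightest genes, the 15 with the largest and the 10 with the smallest range, up to 5 with the widest probe gap, and from 19 cell type and 22 function lists up to 8 detected members by mean, up to 8 absent ones by alphabet, and others as members of a family. Genes furthest apart between replicates 1 and 3, and those picked to illustrate an order of arrays, were chosen after their values were seen. The lists were chosen with earlier results of these data known. Computations used Python 3.11.15, pandas 2.3.3, numpy 2.4.6, R 4.3.3 and limma 3.58.1 (normexp with an offset of 50), and the steps were tested on simulated data. No test was run. Some genes that the rule names are not reported here.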

Additional observations from a re-analysis of the deposited data

How the results depend on the processing

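The count of 5884 detected genes became 7186 when 2 of 3 arrays sufficed, 8014 with 1 of 3, 7708 with the positive and significant flag and 5900 with outlier spots kept. It ranged from 5911 to 7142 with each replicate left out. Of the 40 brightest genes, 32 were kept when a gene took its probes' mean, 39 with normexp background correction, 40 with the authors' value table or quantile normalization, and 38 to 39 with each replicate left out. The median SD of 0.249 moved to 0.167 with normexp and to 0.240 without the bright blocks. With each replicate left out it ranged from 0.165 to 0.235, the lowest without replicate 3. Those are SDs over 2 arrays, whose median tends to be lower than over 3 at the same spread. The fall from 0.249 is therefore not read as a change in spread. Chosen after seeing the data, leaving out probes with the repeat run gave 5866 detected genes and kept 32 of the 40 brightest. Leaving out the bright blocks, also chosen then, gave 5955 and kept 40, with probes there called on replicates 1 and 3 alone. Without replicate 2, counts moved by more than 1.5 times for smooth muscle transcription factors (13 to 20), neurons (6 to 13), lymphocytes (9 to 16), erythroid genes (4 to 7) and adrenergic, muscarinic and histamine receptors (4 to 9). The count over all named genes rose from 5884 to 7142 in the same setting. With 2 of 3 arrays the same lists moved, to 20, 14, 16, 8 and 9. With 1 of 3 arrays 16 of 41 lists moved and with the other flag 13, the neurons to 21 and 19 and potassium channels from 16 to 33 and 26. All levels shift with the reference, by a median of 0.75 with normexp and -1.73 with the 75th percentile over detected probes. The mean of all probes took VWF from 5.68 to 1.98, CST3 from 8.51 to 3.64 and ITGB1 from 7.77 to 2.64. No difference was tested, and whether a gene's order of arrays held under these settings was not checked. That order depends on the reference of each array. ATP5MG, highest on replicate 3 by level, had processed signals of 20677, 21214 and 20627 on replicates 1, 2 and 3. Dim genes are limited by the background of replicate 2. No paired analysis was possible because the values come from 1 group with no test.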
